A study of Mus musculus with 6 samples.

Results

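The 10 genes described here are markers of pericytes and of contractile smooth muscle: Pdgfrb, Cspg4, Rgs5, Acta2, Tagln, Myl9, Cnn1, Cnn2, Tpm2 and Mylk. They were taken by symbol from the 23366 genes of the count table, and all 10 passed the filter on low counts that left 15731 genes to test. RNA came from cerebellar granule neurons of C57BL/6 mice, taken on postnatal day 7, purified on a Percoll gradient and cultured in a medium with 2% serum. On day 1 in vitro the cultures received lentivirus, namely empty pLKO.1 as the control (n = 3) or pLKO.1 with 1 short hairpin RNA against Kdm6b (knockdown, n = 3), so both groups carried a lentiviral vector. Each culture starts from the pooled cerebella of a litter, per the labels' protocol, and the labels do not say which cultures, if any, received the growth factor BDNF. With 1 hairpin sequence given and an empty vector rather than a scrambled hairpin as control, effects of the hairpin other than on Kdm6b cannot be told apart from those of lower Kdm6b.

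Pericytes wrap the endothelium of capillaries, and smooth muscle cells wrap larger vessels. Pdgfrb encodes the receptor through which platelet-derived growth factor B from endothelium recruits pericytes, Cspg4 encodes the NG2 proteoglycan, and Rgs5 encodes a regulator of G protein signalling that is abundant in brain pericytes. The other 7 genes build or control the contractile apparatus: smooth muscle actin (Acta2), the actin-binding proteins transgelin (Tagln) and calponins (Cnn1, Cnn2), beta-tropomyosin (Tpm2), the regulatory light chain of myosin (Myl9) and the kinase that phosphorylates such light chains (Mylk). Fibroblasts that become myofibroblasts in culture also make several of these proteins, Acta2 and Tagln above all, and oligodendrocyte precursors make NG2. Many contractile genes are controlled by serum response factor (SRF), which binds a short element called the CArG box, together with myocardin (Myocd) or the related factors MRTF-A (Mkl1) and MRTF-B (Mkl2).

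The start regions of 3 contractile members are shown because they hold this element within the 300 bases searched, from 250 before to 50 after the annotated start. Capitals mark each CArG box, searched as CC and GG flanking a run of A or T, with 1 other base allowed in that run; the pattern reads alike on both strands. All 3 sequences are RefSeq's, build GRCm38.p6, read 5′ to 3′ along the gene: Acta2 at chr19:34255324-34255623 (minus strand), Myl9 at chr2:156775214-156775513 (plus) and Cnn2 at chr10:79988350-79988649 (plus).
Acta2: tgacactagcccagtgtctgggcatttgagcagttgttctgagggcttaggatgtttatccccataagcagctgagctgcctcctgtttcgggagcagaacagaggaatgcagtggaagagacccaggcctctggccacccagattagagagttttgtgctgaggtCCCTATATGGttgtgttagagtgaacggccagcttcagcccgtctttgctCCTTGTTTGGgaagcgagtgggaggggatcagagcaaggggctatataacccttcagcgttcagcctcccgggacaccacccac
Myl9: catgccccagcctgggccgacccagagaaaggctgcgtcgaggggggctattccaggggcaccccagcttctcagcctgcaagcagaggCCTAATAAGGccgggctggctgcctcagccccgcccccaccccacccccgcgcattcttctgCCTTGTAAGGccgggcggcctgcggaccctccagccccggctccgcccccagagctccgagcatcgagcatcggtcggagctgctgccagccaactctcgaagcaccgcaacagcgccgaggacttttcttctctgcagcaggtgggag
Cnn2: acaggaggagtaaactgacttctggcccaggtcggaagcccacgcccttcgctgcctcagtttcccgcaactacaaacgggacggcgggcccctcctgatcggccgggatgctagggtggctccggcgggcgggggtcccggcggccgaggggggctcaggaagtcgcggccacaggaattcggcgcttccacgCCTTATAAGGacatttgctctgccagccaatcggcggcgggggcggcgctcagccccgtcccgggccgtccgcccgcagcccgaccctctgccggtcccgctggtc
Acta2 had 2 boxes with 1 other base each, beginning 84 and 34 bases before the start. Myl9 had 1 exact box 161 bases before the start and 1 with another base 99 bases before it, and Cnn2 had 1 exact box 56 bases before the start. Windows of 8 members were searched, and those of Cspg4, Rgs5, Cnn1, Tpm2 and Mylk held no box of either kind. The start regions of Pdgfrb and Tagln were not searched. The Mylk window (chr16:34784700-34784999) lies inside the gene, which begins at 34745210, so the region of that first start was not searched. Among all 32851 windows, 1.63% held an exact box and 9.98% held a box with at most 1 other base. A match is a description of these letters and not of binding.

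The hairpin strand in the labels is shown because it is the reagent that separates the groups, with the 18 bases found unbroken in Kdm6b transcripts in capitals.
Kdm6b hairpin: GTTCGTTACAAGTGAGAActc
The longest unbroken stretch that any transcript of the 10 members shared with it was 9 bases (Cspg4 and Mylk), and the shortest of the 10 maxima was 6 bases (Myl9). A stretch of at least 9 bases was found in 17.6% of the 14748 tested genes matched by name to GENCODE M21 transcripts.

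Kdm6b itself was at 257, 146 and 170 CPM in control replicates 1 to 3 and at 88.8, 63.3 and 79.8 CPM in knockdown replicates 1 to 3, so the groups did not overlap. CPM here are depth-scaled counts, computed on TMM library sizes. Kdm6b had a log2 fold change of −1.28 (SE 0.11, edgeR adjusted p = 0.0282) with the replicate number as a block and −1.31 (SE 0.25, edgeR adjusted p = 0.216) without it. Gene counts per library ran from 50326298 to 88214069, and the lowest count of any member in any library was 112, for Cnn1 in knockdown replicate 1. Granule neuron markers summed to 3426 to 5146 CPM in controls and at 3811 to 5843 CPM in knockdowns, and Zic1, a transcription factor of the lineage, stood at 985 ± 138 and 1148 ± 193 CPM (SD, n = 3). Libraries that share a replicate number shared deviations across genes, so the members were tested without and with that number as a block, and other genes are given with it. The series calls its triplicates biological without saying whether they were separate cultures or litters, and p-values measure only the spread between these samples.

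Most of the 10 markers were lower in the knockdown. Pdgfrb, Cspg4, Acta2, Tagln, Cnn1, Cnn2 and Tpm2 fell in the fit with the replicate block, while Rgs5, Myl9 and Mylk did not pass it. The largest drops were those of Cnn1 (log2 fold change −1.60, SE 0.13) and Cspg4 (−1.59, SE 0.29), and the smallest among the 7 was that of Cnn2 (−0.58, SE 0.08). Throughout, "fell" and "rose" refer to this fit, at a Benjamini-Hochberg adjusted p under 0.05 over all genes. Over all genes tested 5.40% fell and 2.58% rose, the shares to set beside each count given below. Fewer marker-bearing cells and less RNA per cell cannot be told apart in bulk libraries.

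The call rested on the block. In the edgeR quasi-likelihood fit without it, which was planned as the main fit, 0 of 10 members passed. There 0.00636% of all genes tested passed, that is 1 gene, Fndc3a. At an unadjusted p under 0.05 this fit gave 3 members, Pdgfrb, Cspg4 and Tpm2, all lower, as did 5.80% of all genes in that direction; limma-voom gave 0 at the adjusted threshold, and DESeq2 gave 1, Pdgfrb (DESeq2 adjusted p = 0.0261), where 2.48% of all genes were called lower by DESeq2. With the block 7 of 10 members fell and 0 rose, beside 5.40% of all genes lower and 2.58% higher. The same 7 were lower in all 3 pairs, as were 28.5% of all genes. In 1 of the 10, Pdgfrb, every knockdown library lay below every control library, which held for 7.44% of all genes. The median log2 fold change of the 10 was −0.86 with the block and −0.94 without it, beside 0.02 for all genes in both fits.

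**Figure D1:**
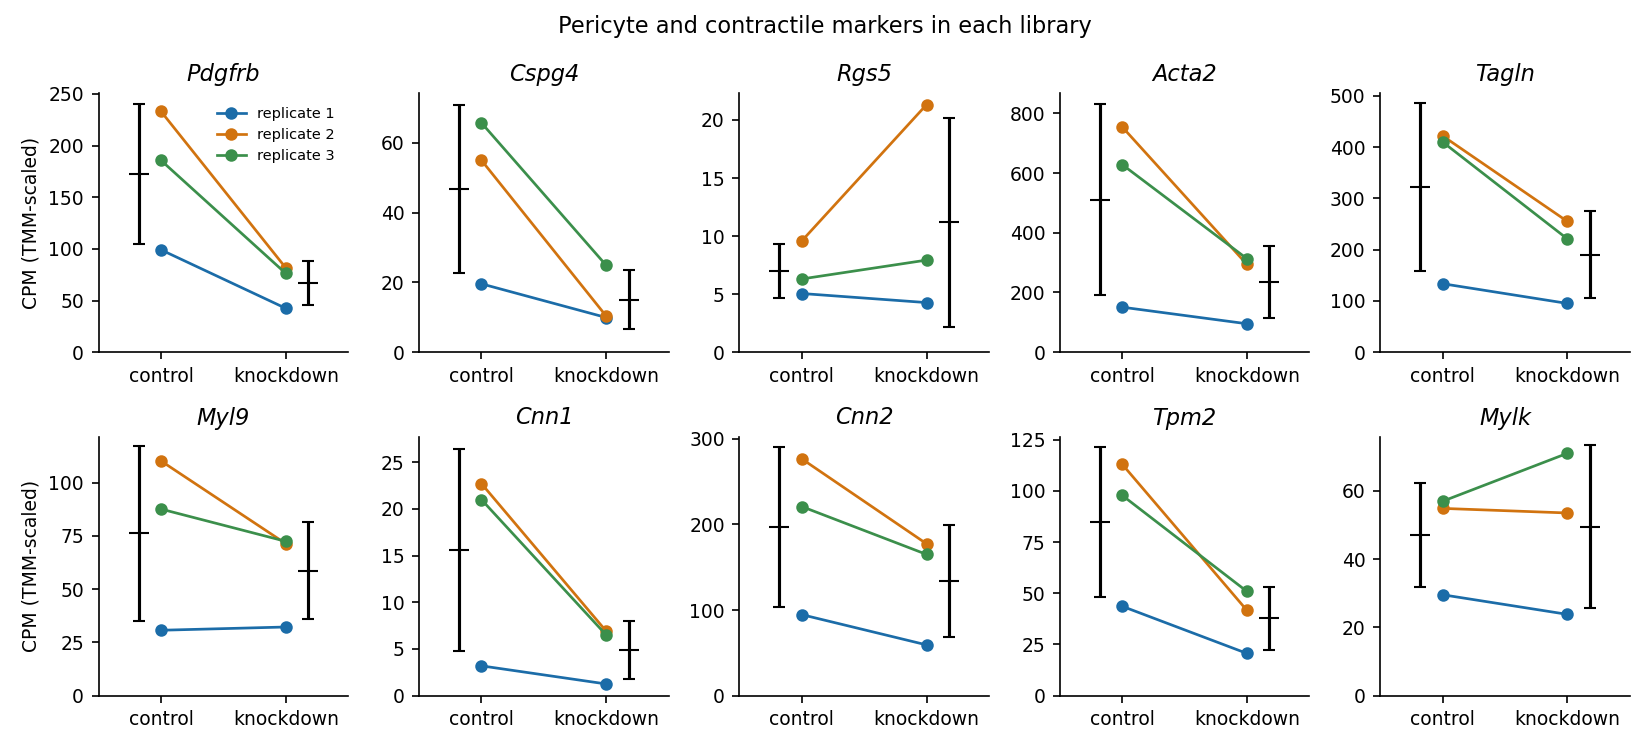
CPM (TMM-scaled, linear axes from 0) of the 10 members in each library; a line joins the control and knockdown libraries of 1 replicate number, and black bars give the mean and SD (n = 3). In all 10 panels both libraries of replicate 1 lie at the bottom of their group, and Pdgfrb is the panel whose groups do not overlap.

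Of the pericyte markers, Pdgfrb (chromosome 18, 61045150 to 61085061, plus strand, GRCm38) was at 99.0, 233 and 186 CPM in control replicates 1 to 3 and at 42.4, 81.5 and 76.2 CPM in knockdown replicates 1 to 3. The highest knockdown library was below the lowest control library. Its log2 fold change was −1.34 (SE 0.08) with the block (edgeR adjusted p = 0.0282) and −1.37 (SE 0.38) without it (edgeR adjusted p = 0.341). Each knockdown library held 35.0% to 42.8% of the Pdgfrb level of its paired control, the narrowest range of pair differences among the members that fell by more than 1 on the log2 scale. For a single value, exact two-sided permutation of 3 and 3 libraries gives no p smaller than 0.1.

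Cspg4 (chromosome 9, 56865033 to 56899870, plus strand) was at 19.6, 55.0 and 65.7 CPM in controls and at 9.93, 10.3 and 24.9 CPM in knockdowns. The groups overlapped because control replicate 1 lay below knockdown replicate 3. The pairs differed in size, with knockdown levels at 50.7%, 18.8% and 37.8% of the paired controls. With the block Cspg4 fell by 1.59 (SE 0.29) on the log2 scale (edgeR adjusted p = 0.0455; 0.407 without the block), the weakest of the 7 calls, and it was lost when any 1 replicate pair was left out (edgeR adjusted p = 0.0515 to 0.0985).

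Rgs5 (chromosome 1, 169655501 to 169695813, plus strand) did not pass in either fit. It was at 5.05, 9.59 and 6.31 CPM in controls and at 4.27, 21.3 and 7.93 CPM in knockdowns, so that 1 library, knockdown replicate 2, stood well above the other 5. The log2 fold change was 0.42 (SE 0.29) with the block (edgeR adjusted p = 0.348) and 0.03 with the block when pair 2 was left out. Without the block it was 0.68 (SE 0.61, edgeR adjusted p = 0.714), and it turned to −0.21 in that fit without knockdown replicate 2. The ratio of Rgs5 to Pdgfrb within a library was 0.0510, 0.0411 and 0.0340 in controls and 0.101, 0.262 and 0.104 in knockdowns. The groups did not overlap (exact permutation p = 0.1, the smallest possible for 3 against 3, adjusted p = 0.35 over 7 ratios). This test, used for all 7 ratios, ignored the replicate number.

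Among the contractile genes Acta2 (chromosome 19, 34241090 to 34255590, minus strand) was the most abundant, at 151, 755 and 629 CPM in control replicates 1 to 3. In knockdown replicates 1 to 3 it was at 95.1, 294 and 313 CPM. The spread between controls, 5.01-fold from lowest to highest, was wider than the difference within any pair, and control replicate 1 lay below 2 of the 3 knockdown libraries. Within pairs the knockdown held 63.1%, 38.9% and 49.8% of the control. Acta2 fell by 1.01 (SE 0.15) on the log2 scale with the block (edgeR adjusted p = 0.0362) and had a log2 fold change of −1.13 (SE 0.68) without it (edgeR adjusted p = 0.588). Its coding sequence closely resembles those of other actins, so reads shared between them make its level less certain.

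Tagln (chromosome 9, 45929619 to 45936058, minus strand), which cross-links actin filaments, was at 134, 422 and 410 CPM in controls and at 95.1, 255 and 221 CPM in knockdowns. As for Acta2, the drop was within pairs while the groups overlapped. Tagln fell by 0.70 (SE 0.10) on the log2 scale (edgeR adjusted p = 0.0343; 0.638 without the block). Its exons overlap genes on the opposite strand, Pcsk7 by up to 108 bases and Gm48529, which has no row in the count table, by up to 645 bases. No source used here says whether counting used strand, so the level of Tagln is uncertain; Pcsk7 stood at 30.5 to 42.9 CPM over the 6 libraries.

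The 2 calponins, which bind actin and hold back myosin ATPase activity, differed in level and in the size of their drop. Cnn1 (chromosome 9, 22099216 to 22109630, plus strand), the form typical of differentiated smooth muscle, was at 3.19, 22.7 and 21.0 CPM in controls and at 1.25, 6.90 and 6.50 CPM in knockdowns. It varied more between controls than any other member, by 7.11-fold, and fell by 1.60 (SE 0.13) on the log2 scale (edgeR adjusted p = 0.0282; 0.544 without the block). Cnn2 (chromosome 10, 79988584 to 79996062, plus strand), a form found in many cell types, was at 94.6, 277 and 221 CPM in controls and at 59.3, 177 and 165 CPM in knockdowns. It fell by 0.58 (SE 0.08) on the log2 scale (edgeR adjusted p = 0.0334; 0.730 without the block), and with library totals in place of TMM it missed the threshold (edgeR adjusted p = 0.0510). The ratio of Cnn1 to Cnn2 went from 0.0338, 0.0821 and 0.0951 in controls to 0.0211, 0.0389 and 0.0394 in knockdowns, lower in all 3 pairs, with overlapping groups (exact permutation p = 0.3, adjusted p = 0.42 over 7 ratios).

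Tpm2 (chromosome 4, 43514711 to 43523765, minus strand), whose protein lies along the actin filament, was at 43.7, 113 and 97.9 CPM in controls and at 20.6, 41.6 and 50.9 CPM in knockdowns. Only knockdown replicate 3 exceeded the lowest control. Tpm2 fell by 1.15 (SE 0.12) on the log2 scale (edgeR adjusted p = 0.0282; 0.461 without the block). The ratio of Tpm2 to its paralog Tpm1 was 0.164, 0.212 and 0.202 in controls and 0.0970, 0.101 and 0.135 in knockdowns, without overlap (exact permutation p = 0.1, the smallest possible; adjusted p = 0.35 over 7 ratios).

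The myosin light chain and its kinase did not pass either fit. Myl9 (chromosome 2, 156775420 to 156781658, plus strand) was at 30.7, 110 and 87.6 CPM in controls and at 32.2, 71.4 and 72.5 CPM in knockdowns, higher in the knockdown in pair 1 and lower in the other pairs. Its log2 fold change was −0.28 (SE 0.14) with the block (edgeR adjusted p = 0.238; 0.821 without the block). Mylk (chromosome 16, 34745210 to 35002420, plus strand) was at 29.6, 54.9 and 56.9 CPM in controls and at 23.8, 53.5 and 71.0 CPM in knockdowns, with 1 pair down, 1 nearly level and 1 up. Its log2 fold change was −0.01 (SE 0.13) with the block (edgeR adjusted p = 0.972) and 0.07 (SE 0.44) without it, so the sign itself depended on the fit. The ratio of Mylk to Acta2 was 0.196, 0.0727 and 0.0906 in controls and 0.250, 0.182 and 0.227 in knockdowns, higher in all 3 pairs, with overlapping groups (exact permutation p = 0.2, adjusted p = 0.42 over 7 ratios). Antisense genes overlap Mylk exons too, E130310I04Rik, which had at most 0.176 CPM, and Gm21691, which has no row in the count table, so its level is uncertain in the same way.

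**Figure D2:**
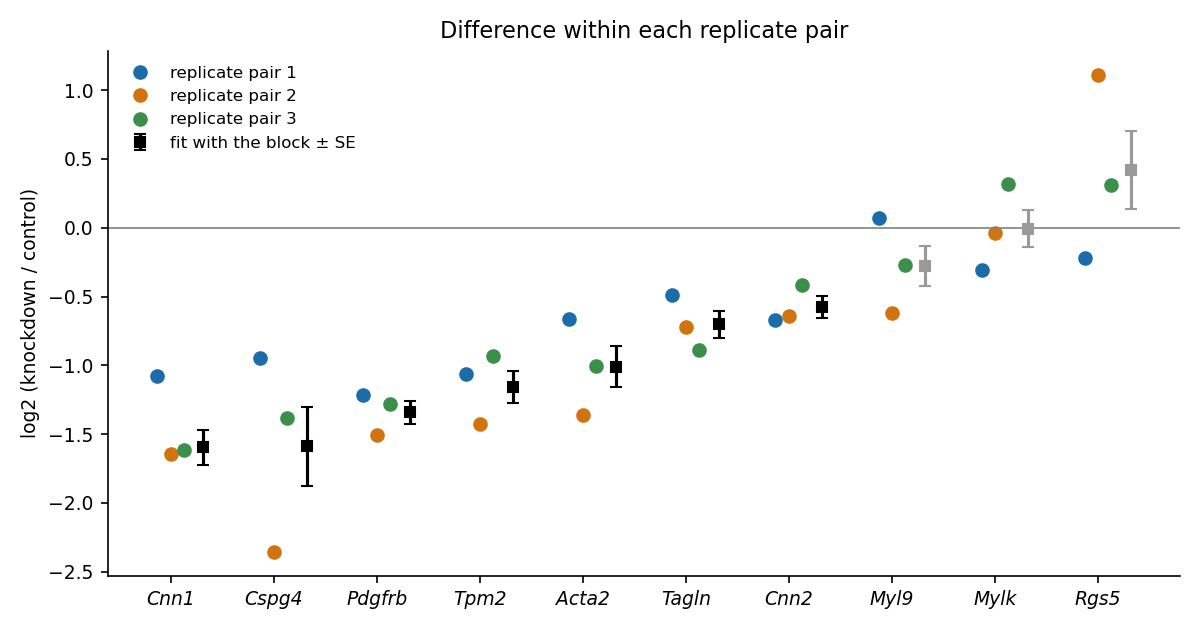
Log2 ratio of knockdown to control in each replicate pair (coloured points, log2 of CPM plus 0.5) and the fitted log2 fold change with the replicate block and its SE (squares, black where the adjusted p was under 0.05). Cnn1, Cspg4, Pdgfrb, Tpm2, Acta2, Tagln and Cnn2 lie below 0 in all 3 pairs, while Myl9, Mylk and Rgs5 have pairs on both sides of 0.

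The pair that showed the smallest drop was not the same for all genes. Pair 1 had the smallest difference for Pdgfrb, Cspg4, Acta2, Tagln and Cnn1, and pair 3 for Cnn2 and Tpm2. The call of all 7 was lost when replicate pair 1 was left out (edgeR adjusted p = 0.0933 to 0.124), although their log2 fold changes then ran from −1.90 to −0.53. Without replicate pair 2 only Pdgfrb and Tpm2 kept the call, and without pair 3 all but Cspg4 did. Over all genes 0 passed without pair 1, 53 without pair 2 and 1272 without pair 3, beside 1256 with all pairs. The loss without pair 1 was therefore not particular to the 7.

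Levels moved with the replicate number as well as with the group. The 10 members together took 0.0614%, 0.204% and 0.165% of gene counts in control replicates 1 to 3 and 0.0389%, 0.101% and 0.107% in knockdown replicates 1 to 3. Replicate 1 was lowest in both groups, and control replicate 1 lay below knockdown replicates 2 and 3. The 7 contractile members summed to 486, 1754 and 1523 CPM in controls and at 327, 900 and 900 CPM in knockdowns, which is 67.4%, 51.3% and 59.1% of the paired control. The 3 pericyte members summed to 124, 298 and 258 CPM in controls and at 56.6, 113 and 109 CPM in knockdowns, or 45.8%, 38.0% and 42.3%. Pdgfrb made up most of these sums, at 99.0, 233 and 186 CPM in controls, so they largely restate that gene. Rgs5 went the other way in pairs 2 and 3.

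Per kilobase of annotated exon, the levels in controls ranked as Acta2 (233 ± 145), Tagln (162 ± 82.1), Cnn2 (80.2 ± 37.9), Myl9 (65.6 ± 35.2), Pdgfrb (31.5 ± 12.4), Tpm2 (29.2 ± 12.5), Cnn1 (5.71 ± 3.95), Mylk (4.18 ± 1.35), Cspg4 (3.92 ± 2.02) and Rgs5 (1.54 ± 0.515), all in CPM per kb (SD, n = 3). Neighbours in this order differed by less than the larger of their SDs, except across the steps from Tpm2 to Cnn1 and from Cspg4 to Rgs5. In knockdowns Acta2 was at 107 ± 54.9 and Tagln at 95.7 ± 42.4 CPM per kb (SD, n = 3).

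The label of these genes was checked against other markers of the same cells, which did not bear it out in every library. Of 15 tested further pericyte markers 1 fell, Cd248 (endosialin, also made by fibroblasts; log2 fold change −1.56, SE 0.19), and 1 rose, Gucy1a3, a subunit of soluble guanylate cyclase (0.96, SE 0.09). The median of that list was −0.11 with the block and 0.01 without it, so its sign depended on the fit. The channel subunits Kcnj8 and Abcc9, which together form the potassium channel typical of brain pericytes, were low and uneven. Kcnj8 was at 2.78, 0.160 and 0.572 CPM in controls and at 3.19, 0.167 and 0.717 CPM in knockdowns, and Abcc9 was at 6.64, 0.941 and 3.45 CPM in controls and at 3.91, 0.464 and 3.95 CPM in knockdowns. Both were lowest in replicate 2, where Pdgfrb and Acta2 stood highest among the controls. Higd1b, another pericyte gene, had 0 counts in both libraries of replicate 2 and at most 0.351 CPM elsewhere. Notch3, a mural cell receptor, had a log2 fold change of −0.27 (SE 0.07, edgeR adjusted p = 0.0747). Ednra, of the same list, was at 20.1, 24.4 and 21.4 CPM in controls and at 8.06, 4.58 and 11.4 CPM in knockdowns. The groups did not overlap, as for 7.44% of all genes. Ednra missed the threshold with the block (−1.53, SE 0.31, edgeR adjusted p = 0.0527) and passed in DESeq2 without it (DESeq2 adjusted p = 0.00300). Of the 15 genes 5 were lower in all 3 pairs, beside 28.5% of all genes, and 4 were higher. The 10 genes are therefore called here by name and not as a measure of pericytes.

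Other smooth muscle genes were divided as well. Of 13 tested, 2 fell, the enteric smooth muscle actin Actg2 (49.9 ± 36.4 to 19.4 ± 14.3 CPM, SD, n = 3) and the actin- and calmodulin-binding caldesmon gene Cald1 (log2 fold change −0.44, SE 0.08), and 0 rose. The smooth muscle myosin Myh11, the most specific marker of mature smooth muscle in the list, was at 0.496, 4.70 and 2.38 CPM in controls and at 1.22, 7.55 and 2.66 CPM in knockdowns, higher in the knockdown in all 3 pairs without passing (log2 fold change 0.68, SE 0.26, edgeR adjusted p = 0.144). Desmin (Des) was at 2.02 to 5.20 CPM in controls and at 2.99 to 3.77 CPM in knockdowns. The list median was −0.12.

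Skeletal and cardiac muscle genes were near the floor in all libraries, with a sum over 7 genes of 1.62 to 3.43 CPM in controls and at 1.47 to 5.18 CPM in knockdowns. Acta1, skeletal actin, was at 1.43 ± 0.563 and 2.18 ± 1.54 CPM (SD, n = 3), and Tnni1, a slow troponin, at 0.787 ± 0.362 and 0.402 ± 0.221 CPM (SD, n = 3); neither passed.

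Broadly expressed relatives and partners of the contractile members were also tested. Of 17 such genes, among them cytoplasmic actins, myosins and tropomyosins, 3 fell and 0 rose, with a list median of −0.32. The 3 were Myh9, the heavy chain of non-muscle myosin IIA (log2 fold change −1.14, SE 0.11; group means 713 ± 325 and 314 ± 125 CPM, SD, n = 3), Tpm4 (−0.55, SE 0.10) and the actin cross-linker Actn1 (−0.38, SE 0.07). The paralogs Cnn3 (−0.42, SE 0.10), Tagln2 (−0.84, SE 0.23) and Tpm1 (−0.36, SE 0.07) had adjusted p from 0.0526 to 0.0810 in the edgeR fit with the block. Cytoplasmic beta-actin, Actb, had a log2 fold change of −0.20 (SE 0.12, edgeR adjusted p = 0.292).

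None of 6 genes for SRF and its cofactors passed the edgeR fit with or without the block. Srf was at 63.6 ± 11.7 CPM in controls and at 64.7 ± 7.49 CPM in knockdowns (SD, n = 3), and Mkl1 at 40.3 ± 9.08 and 37.6 ± 5.58 CPM (SD, n = 3). Myocd, the smooth muscle cofactor, was at 1.90, 0.460 and 0.686 CPM in controls and at 7.00, 0.891 and 1.45 CPM in knockdowns, higher in all 3 pairs (log2 fold change 1.36, SE 0.27, edgeR adjusted p = 0.0515). The 5 PDGF ligands and alpha receptor also gave 0 calls. Pdgfb, the ligand of the Pdgfrb receptor in vessels, was at 8.18 ± 5.39 and 6.51 ± 2.39 CPM (SD, n = 3), and the smallest p of that list was that of Pdgfc (log2 fold change −0.51, SE 0.16, edgeR adjusted p = 0.106).

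**Figure D3:**
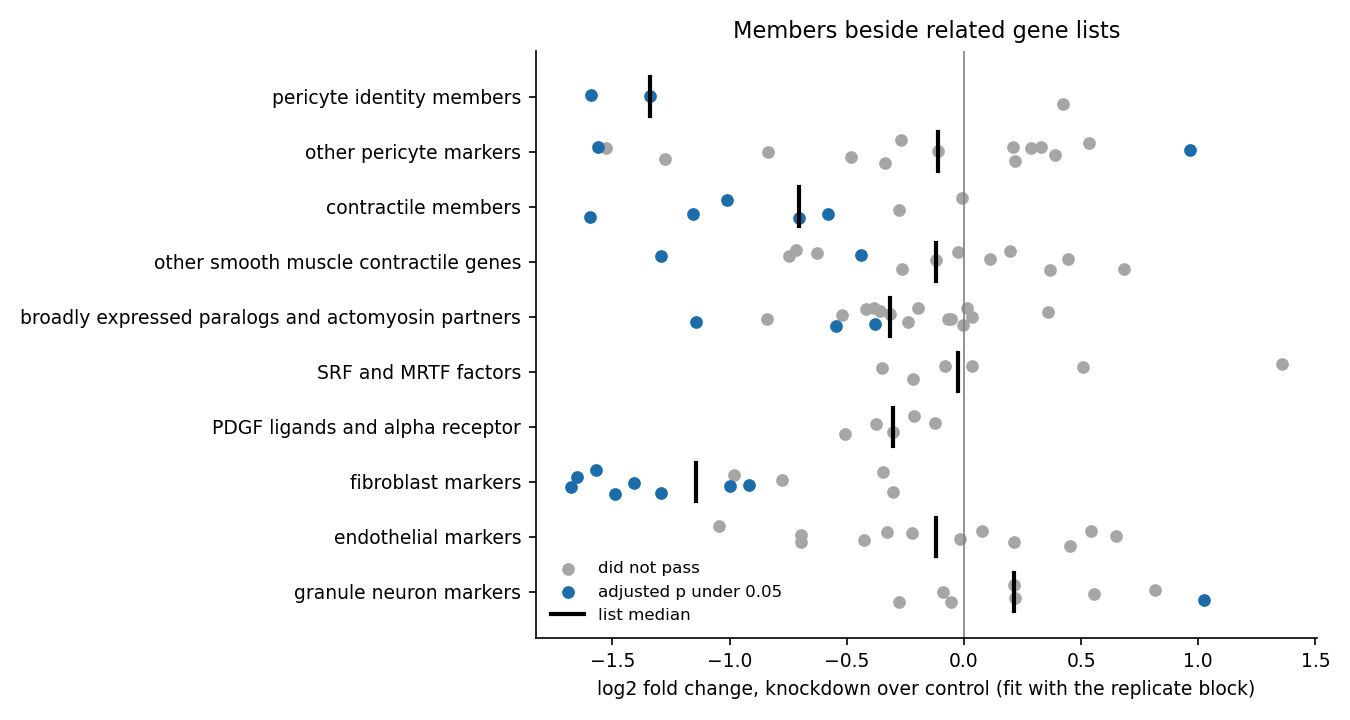
Log2 fold change (fit with the replicate block) of each tested member of 10 gene lists, blue where the adjusted p was under 0.05, with the list median as a black bar. The 7 contractile members have a median of −0.70 and the fibroblast markers one of −1.14, while other pericyte markers (−0.11) and other smooth muscle genes (−0.12) lie near 0.

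Markers of other cells moved beside these genes, and their part in the result was not tested. Fibroblast markers were lower: 8 of 12 fell and 0 rose, beside 5.40% of all genes lower and 2.58% higher. Their sum was 15015 to 29460 CPM in controls and 5275 to 13912 CPM in knockdowns, and none of the 12 was at 0 in all libraries. Col3a1 went from 4411 ± 177 to 1409 ± 365 CPM (SD, n = 3), Col1a1 from 6572 ± 2633 to 2476 ± 1508 CPM (SD, n = 3), Fn1 from 4049 ± 2032 to 1592 ± 899 CPM (SD, n = 3) and Col5a1 from 927 ± 380 to 476 ± 219 CPM (SD, n = 3). Within pairs the knockdown held 35.1%, 32.5% and 47.2% of the fibroblast sum of the control. Replicate 1 was lowest in both groups for that sum too.

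Endothelial markers gave 0 calls among 12, with sums of 123 to 199 CPM in controls and at 101 to 225 CPM in knockdowns. Cdh5 and Eng made up much of these sums. Cdh5 was at 41.0, 73.6 and 118 CPM in controls and at 26.5, 45.4 and 122 CPM in knockdowns. In direction the sums followed Cdh5 in all 3 pairs but Pecam1 only in pair 3. Pecam1 was at 8.51, 0.340 and 1.75 CPM in controls and at 9.69, 0.464 and 3.48 CPM in knockdowns, and the smallest p was that of Esam (log2 fold change −1.04, SE 0.22, edgeR adjusted p = 0.0553). Of 6 oligodendrocyte precursor markers 1 fell, Cspg4 itself, with sums of 173 to 265 and 99.6 to 218 CPM; Pdgfra (−0.30, SE 0.13) and Sox10 (−0.32, SE 0.20) did not pass. Of 8 astrocyte markers 1 fell, the gap junction gene Gja1 (−1.76, SE 0.30), with sums of 1254 to 2987 and 826 to 3028 CPM. The median of that list was −0.21 with the block and 0.07 without it. Of 8 microglia markers 1 fell, Tmem119 (−1.41, SE 0.14), with sums of 43.7 to 90.5 and 9.13 to 49.9 CPM. In all 3 pairs 5 of the 8 were lower and 0 higher, beside 28.5% of all genes lower. In replicate 2 Tmem119 made up most of the sum, at 42.7 CPM in the control and 13.8 CPM in the knockdown. There C1qa was at 0.120 and 0.0557 CPM, so Tmem119 did not follow it. Of the 8 granule neuron markers 1 rose, the tubulin Tubb3 (1.02, SE 0.15), and 0 fell.

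**Figure D4:**
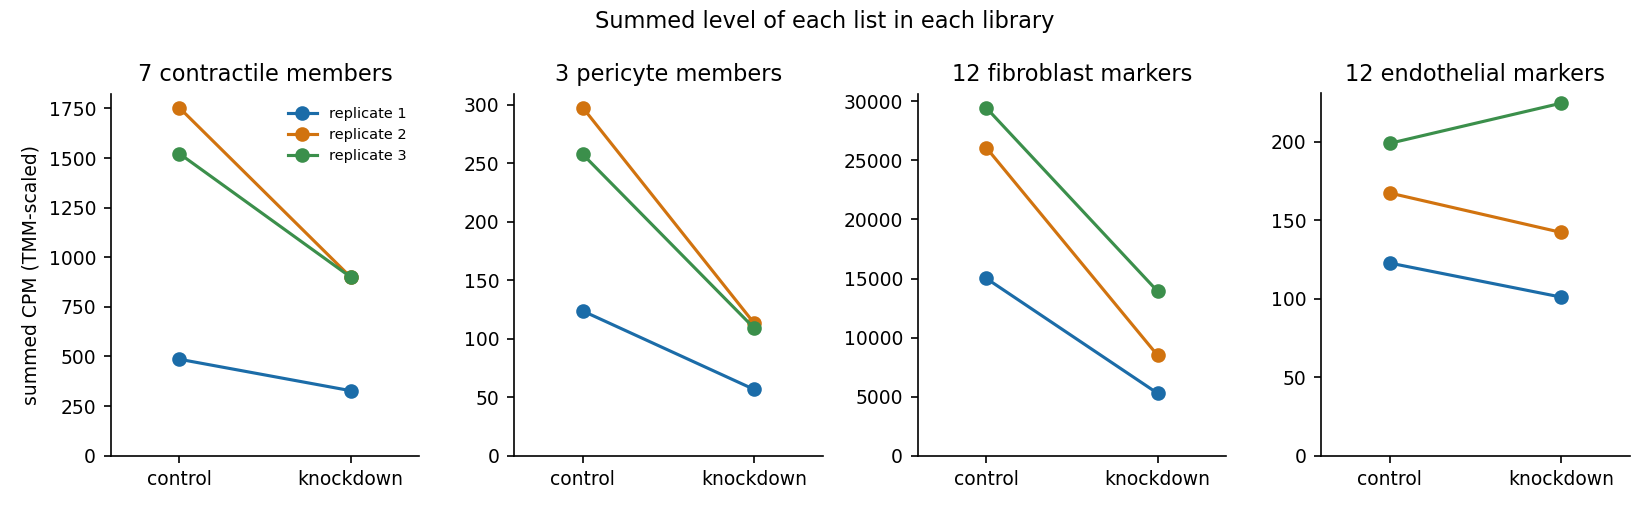
Summed CPM (TMM-scaled, linear axes from 0) of the contractile members, the pericyte members, the fibroblast markers and the endothelial markers in each library, joined by replicate number. The first 3 sums are lower in the knockdown in all 3 pairs, and the endothelial sum is lower in pairs 1 and 2 and higher in pair 3.

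The genes whose profile over the 6 libraries was closest to that of Pdgfrb, by the root mean square difference of centred log2 CPM among the 11771 genes averaging 5 CPM or more, were Tram2 (0.12), Ammecr1 (0.16), Mthfd2 (0.16), Postn (0.17) and Myof (0.18). Tram2 acts in the synthesis of type I collagen, Mthfd2 is a mitochondrial folate enzyme, Postn encodes the matrix protein periostin and Myof encodes myoferlin, a membrane repair protein. For Acta2 they included Msrb3 (0.24), Efna5 (0.24), Piezo1 (0.24) and Pmepa1 (0.25); Efna5 encodes an ephrin and Piezo1 a channel opened by membrane stretch. Each of the neighbours named here fell, with log2 fold changes from −1.44 (Mthfd2) to −0.80 (Msrb3), as the measure favours for genes close to a member that fell. Among the members themselves the closest profiles were those of Tagln and Cnn2 (0.15) and of Pdgfrb and Tpm2 (0.18), and the most distant were those of Cspg4 and Rgs5 (1.33).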

How the data were processed

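Per the labels' protocols, stranded mRNA libraries were read as 50 bp single ends. The submitters' processing notes name mouse build mm9 and the tools Trimmomatic, TopHat2, HTSeq, DESeq2 and edgeR; no source used here gives versions, annotation or strand setting. The authors deposited whole-number counts per gene. Tallies that name no gene were left out. They included reads outside genes (12.1% to 15.0% of all counts), alignments that were not unique (16.0% to 19.3%) and ambiguous reads (0.406% to 0.509%). Counts were tested with edgeR 4.0.16 in R 4.3.3: filterByExpr (minimum count 10, minimum total 15), TMM, quasi-likelihood F test over all genes, Benjamini-Hochberg at 0.05; SE is the absolute log2 fold change over the square root of F. The fits were also run on simulated data with a built-in effect shared by same-numbered libraries, so that run is no evidence for the block. DESeq2 1.42.0, limma-voom (limma 3.58.1), other scalings and filters, and leaving out libraries were alternatives. No 2 libraries of a group were alike within sampling noise (chi-square 174 to 381 per degree of freedom). Same-numbered libraries deviated together from their group means (correlation across genes 0.814, 0.673 and 0.759, and −0.542 to 0.0166 for different numbers). Centring on group means pushes the values for different numbers down when those for the same number are positive, so they are not separate evidence. This pairing comes from the data, not from the labels. GENCODE M21 (GRCm38) gave positions, exon lengths and transcripts, matched by name only.

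Members and lists were chosen with earlier results of these data known. Named genes were the members, Kdm6b, 19 defining genes, up to 3 called genes per list with the smallest p in the fit with the block (or else the smallest p), and the 5 genes nearest to Pdgfrb and to Acta2, of which 1 is not reported here; Zic1, Higd1b, Fndc3a and the overlapping genes were added after their values were seen.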

Additional observations from a re-analysis of the deposited data

How the results depend on the processing

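The 7 calls depend on the replicate block and, like every call of the edgeR fit with the block, on pair 1. The number of members called was 0 without the block, 1 with DESeq2, 7 with the replicate block and with every block alternative other than library totals (6) and leaving out a pair (0 to 6). Over all genes the count was 1 without the block, 0 with library totals alone, 567 with DESeq2 and 0 without any 1 library. With the replicate block it was 1256, then 1342 (RLE), 1350 (upper quartile), 1276 (library totals), 1598 (no filter), 1440 (mean of at least 5 CPM), 3440 (DESeq2), 1394 (limma-voom) and 0, 53 and 1272 without pair 1, 2 and 3. Library totals turned the split of calls with the block from 406 higher and 850 lower to 723 higher and 553 lower; the 6 members called there were all lower. All 7 members that fell kept a negative log2 fold change under all 24 alternatives, from −2.21 to −0.21, as did Myl9 (−0.75 to −0.01). Of 55 genes followed, 41 kept their direction. Mylk changed sign with limma-voom (−0.0076), with the replicate block (−0.0085), and with the block under RLE (−0.0252), no filter (−0.0223), 5 CPM (−0.0032) and DESeq2 (−0.0255). When libraries or pairs were left out, the lowest and highest log2 fold changes crossed 0 for Mylk (−0.286 to 0.401; with the block −0.1802, and −0.0104 without pair 2), Rgs5 (−0.21 to 1.07), Abcc9 (−0.8586 to 0.34), Pdgfb (−0.66 to 0.36; block up to 0.0204), Srf (−0.086 to 0.185; block from −0.0422), Des (−0.5422 to 0.0023; block −0.61 to 0.19, and 0.0658 without pair 2), Kcnj8 (−1.40 to 1.89), Mkl1 (−0.27 to 0.0437; block up to 0.0769), Pecam1 (−0.84 to 2.12), Notch3 (−0.64 to 0.087), Sox10 (−0.75 to 0.29), Actb (−0.42 to 0.0695), Acta1 (−0.13 to 0.97) and Myh11 (−0.39 to 1.41); none of these 14 was called without the block, and the cause was not tested. A fit that leaves out a pair has fewer libraries. Depth limits low genes such as Kcnj8, with 8 and 9 counts in replicate 2, and Higd1b, with 0 there.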
